A study of Mus musculus with 50 samples.

Results

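The genes Dlx1, Dlx2, Dlx5, Dlx6, Gad1, Gad2, Pvalb and Sst mark cortical inhibitory neurons, and the binding of GR, the receptor for glucocorticoids (gene Nr3c1), and of nuclear factor I A (NFIA) around them was examined in every cell type of the study. They were chosen by name, as 8 of 21938 protein-coding genes, and every peak overlapping the 50 kb on either side of a gene's annotated start was taken. CUT&RUN, in which an antibody directs a nuclease to a chromatin protein so that short fragments around it are released and sequenced, gave 27 peak lists for GR and 12 for NFIA. The unit throughout is the number of called peaks per library, and each peak also carries a fold enrichment over its local background.

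All V1 libraries came from mouse primary visual cortex at postnatal day 14, from 175000 sorted nuclei each, with the tissue of 3 to 5 mice pooled for a replicate. Inhibitory neurons (InN) were the GFP+ nuclei of Slc32a1-Cre;Sun1-GFPfl/fl mice and excitatory neurons (ExN) those of Slc17a7-Cre;Sun1-GFPfl/fl mice. Oligodendrocytes were those of Olig2-Cre;Sun1-GFPfl/fl mice, and each cell type had 3 libraries for GR and 3 for NFIA. These genotypes are spelled as in the labels, while the methods of the study describe mice heterozygous for Cre and for Sun1-GFP. Astrocytes were labelled by an AAV that carries the GfaABC1D promoter, an inactive Cre (ΔCre) and EGFP-KASH, injected at birth. They came from wild-type mice reared in a normal light cycle (NR, 3 libraries for GR and 3 for NFIA) or in darkness (DR, 3 for GR), and every other V1 group, GR-con and GR-KO included, was NR. In GRfl/fl mice the same vector gave GR-con astrocytes and a vector with active Cre gave GR-KO astrocytes, with 2 GR libraries each. The fibroblast line 3T3 was exposed for 2 h to the synthetic glucocorticoid dexamethasone (DEX, at 200 nM) or to its vehicle, ethanol at 0.01%, with 2 GR libraries for each treatment at 50000 and at 250000 nuclei. Promoters and Cre lines define each population, so InN here means all nuclei with Slc32a1-driven Cre, of which cells with Pvalb or Sst are subtypes. A library of pooled nuclei cannot tell fewer nuclei with a bound site from weaker binding in each nucleus.

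Dlx1, Dlx2, Dlx5 and Dlx6 are homeobox transcription factors, arranged as pairs of neighbouring genes transcribed towards each other. In the embryonic ventral forebrain they specify GABAergic neurons and drive their migration into the cortex, and several remain active in mature interneurons. Gad1 and Gad2 encode the glutamate decarboxylases that make GABA. Pvalb encodes parvalbumin, a calcium-buffering protein of fast-spiking interneurons, and Sst encodes somatostatin, the neuropeptide of a different interneuron class. GR is a nuclear receptor that enters the nucleus when glucocorticoid binds it, and NFIA is a DNA-binding factor of glial development.

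On mm10, Gad2 lies at chr2:22622205-22693874 and Gad1 at chr2:70553072-70602014, both on the + strand. Dlx1 lies at chr2:71528113-71533981 on the + strand and Dlx2 at chr2:71543408-71546754 on the − strand. Dlx6 lies at chr6:6863334-6868568 on the + strand and Dlx5 at chr6:6877805-6882085 on the − strand. Pvalb lies at chr15:78191114-78206400 and Sst at chr16:23889573-23890958, both on the − strand. The starts of Dlx1 and Dlx2 are 18641 bp apart and those of Dlx5 and Dlx6 are 18751 bp apart. The members of a pair therefore share most of their windows and nearly all of their peaks, and the 8 genes make up 6 separate loci.

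The sites at which the results turn are printed here as reference sequence (RefSeq, GRCm38.p6, the assembly of mm10), 5′ to 3′ on the + strand. Each is the peak of a single library, cut where it held annotated untranslated region, so the summits of other libraries can lie outside it. The first pair lies upstream of Dlx6 and holds the only InN sites of GR found in more than 1 library, the next is the upstream side of the Dlx5 start and the next a start inside Gad1, all with peaks in InN alone. The last pair lies beyond the 3′ end of Pvalb, where astrocyte peaks were concentrated. Capitals mark an NFI motif (TTGGCA on either strand), a loose glucocorticoid response element (ACANNNTGT, its own reverse complement) or an E-box (CAGCTG).
Upstream of Dlx6, chr6:6862152-6862267: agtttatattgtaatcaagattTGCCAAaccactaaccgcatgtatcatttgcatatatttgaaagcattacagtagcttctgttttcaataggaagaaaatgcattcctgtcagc
Upstream of Dlx6, chr6:6861910-6862016: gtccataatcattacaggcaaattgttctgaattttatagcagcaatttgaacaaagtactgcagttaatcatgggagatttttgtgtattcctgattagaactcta
Dlx5 start, chr6:6882091-6882184: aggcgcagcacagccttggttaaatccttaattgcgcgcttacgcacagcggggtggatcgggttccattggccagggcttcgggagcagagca
Gad1 internal start, chr2:70561966-70562041: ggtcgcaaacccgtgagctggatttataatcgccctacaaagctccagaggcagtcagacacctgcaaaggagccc
Beyond Pvalb, shared by astrocytes and InN, chr15:78181776-78181972: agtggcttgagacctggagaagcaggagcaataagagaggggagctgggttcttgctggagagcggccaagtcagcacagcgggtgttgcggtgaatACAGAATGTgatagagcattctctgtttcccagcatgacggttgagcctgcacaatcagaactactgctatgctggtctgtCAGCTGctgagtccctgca
Beyond Pvalb, at a start inside Ift27, astrocytes, chr15:78166367-78166616: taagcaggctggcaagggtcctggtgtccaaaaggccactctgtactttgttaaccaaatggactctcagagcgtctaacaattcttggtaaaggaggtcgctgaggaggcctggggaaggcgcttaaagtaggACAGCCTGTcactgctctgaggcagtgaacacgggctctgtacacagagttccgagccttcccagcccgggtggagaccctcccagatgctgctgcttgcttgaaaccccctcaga

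The lists differed widely in length, and no read depth accompanies them. GR lists of replicates 1 to 3 held 2446, 916 and 1534 peaks in InN, 4563, 61 and 1644 in ExN and 14012, 2262 and 21539 in NR astrocytes. NFIA lists held 1907, 178 and 1288 peaks in InN, 4173, 246 and 1 in ExN and 27143, 25441 and 22373 in astrocytes. The other V1 lists ranged from 4 to 7761 peaks. The 3T3 lists had passed a looser q threshold (up to 0.0498, against 0.00999 in V1), so their numbers were not set against those of V1. According to the names of the peaks, GR and NFIA lists of InN were called against an IgG control of the same name, and ExN and oligodendrocytes each had another, so cell type and control library cannot be told apart.

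In all, 70 peaks of 39 libraries fell into the windows, and they merged into 28 regions. Of these, 14 regions had a peak in InN and 11 in NR astrocytes, and 3 had both. The 11 InN regions that were absent from every other group lay at Dlx1 and Dlx2 (2 regions), Dlx5 and Dlx6 (5), Gad1 (2) and Gad2 (2). The 3 regions shared by InN and astrocytes all lay in the Pvalb window. The map of counts by gene and library shows where the peaks of each group lay, with GR peaks of InN mainly at the Dlx genes and astrocyte peaks mainly at Pvalb. Gad1 had peaks in both cell types, at different positions.

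**Figure D1:**
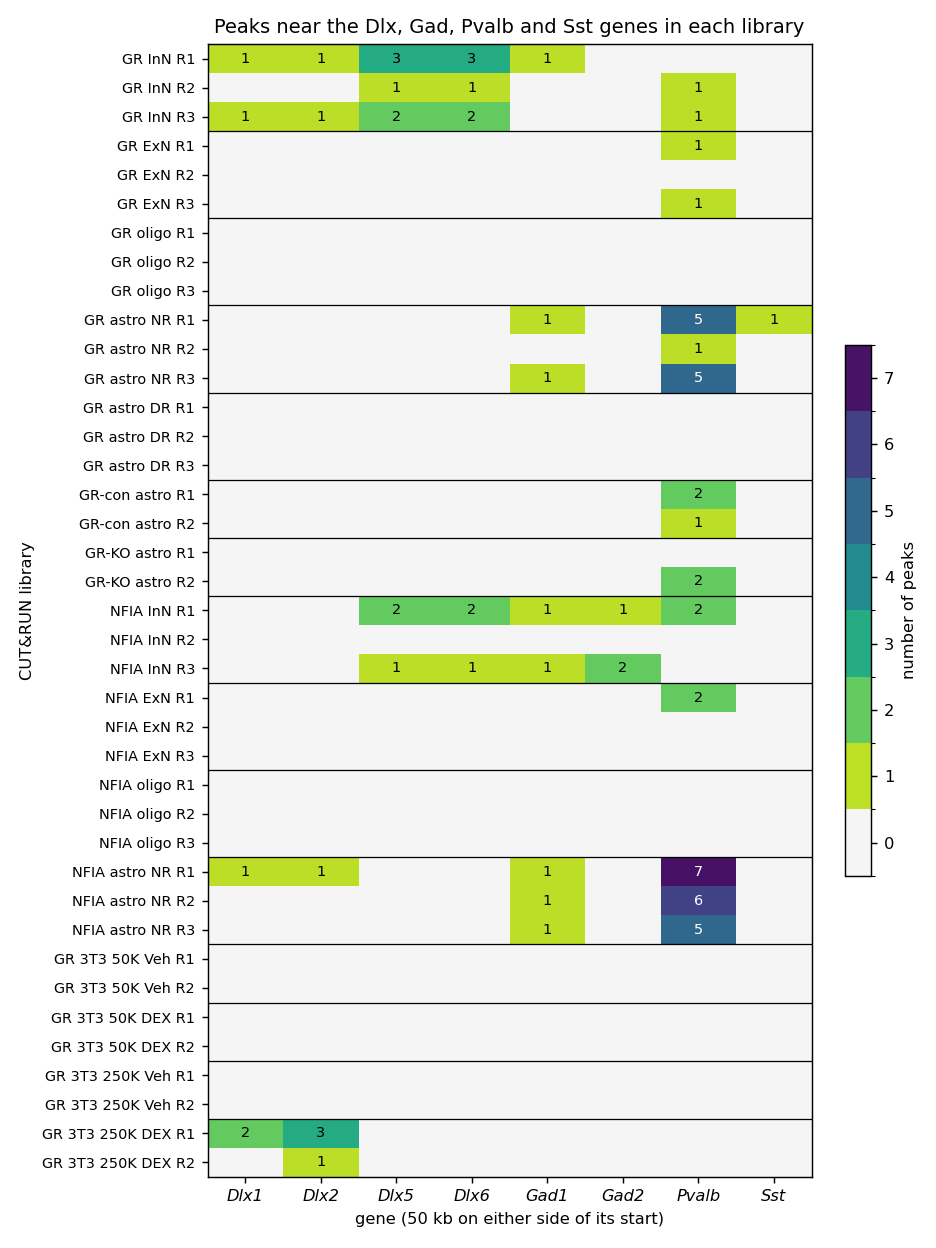
Number of GR or NFIA peaks within 50 kb of the start of each gene (columns) in each CUT&RUN library (rows, R1 to R3 being the replicates of a group), with empty cells for 0. Dlx5 and Dlx6 hold 1 to 3 GR peaks in every InN library and none in any other group's GR libraries, and Pvalb holds 5 to 7 NFIA peaks in every astrocyte library.

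Around Dlx5 and Dlx6, GR peaks numbered 3, 1 and 2 in InN replicates 1 to 3. The NR, DR, GR-con and GR-KO astrocytes, the oligodendrocytes, the ExN and the 3T3 cells had 0 in every GR library. All 3 InN libraries therefore lay above all libraries of NR astrocytes, ExN and oligodendrocytes, the groups with which InN was compared. The DR, GR-con, GR-KO and 3T3 values are description only, with no share of all genes beside them. Against NR astrocytes the means were 2 ± 1 and 0 peaks (SD, n = 3 each), with an exact two-sided permutation p = 0.1, the smallest that 3 libraries against 3 allow, and an adjusted p = 0.883 over all protein-coding genes. The difference did not pass the test, and by this design no single gene could.

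Such separation in favour of InN was rare among all genes. Only 0.0684% of protein-coding genes, 15 of 21938, had more GR peaks in every InN library than in any NR astrocyte library, against 2 of the 8 genes examined here. Since Dlx5 and Dlx6 share the same peaks, these count as 1 locus of 6, and the 15 genes lie at 10 separate places. In 11 of the 15 each InN library had exactly 1 peak. The difference of 2 peaks at Dlx5 and Dlx6 was the largest of the 15, ahead of Tet2 (2, 2 and 2 peaks in InN against 1, 0 and 1), which encodes a 5-methylcytosine oxidase, and Dnah5 (2, 1 and 1 against 0), which encodes an axonemal dynein chain. These last genes, tied at a difference of 1.33, were named after their values were seen. In the opposite direction 6.92% of genes were lower in InN without overlap, and none of the 8 genes was among them. The separation depended on the window: within 10 kb it held for Dlx6 alone and within 100 kb for neither gene. No share of all genes is given for these other windows.

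Against ExN the same 2 genes, Dlx5 and Dlx6, were higher in InN without overlap (exact p = 0.1, adjusted p = 1), where 0.342% of all genes were, and none was lower, beside 0.041%. The median difference in GR peaks, InN minus ExN, was 0.5 over the 8 genes and 0 over all genes. Against oligodendrocytes Dlx5 and Dlx6 were again the only 2 of the 8, with 1.07% of all genes. The 3 comparisons share their InN libraries and are not independent of one another. ExN replicate 2, with 61 peaks, and the oligodendrocyte lists, with 110, 81 and 4, left little room for a peak at any gene.

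The GR peaks of InN clustered upstream of Dlx6, inside the locus of Dlx6os1, a long non-coding RNA gene that runs through the pair. Replicates 2 and 3 had summits at -1344 and -1428 bp from the Dlx6 start, at an annotated transcript start of Dlx6os1 (fold enrichment 5.98 and 4.96). Replicates 1 and 3 had summits at -1069 and -1087 bp, in an intron of Dlx6os1 (5.86 and 7.22). These neighbouring regions, printed in part as the first and second sequences above, were the only 2 sites of GR in InN called in at least 2 libraries. None was called in all 3. The second sequence starts just past the summit of replicate 3 at -1428 bp. Replicate 1 also had a summit in a Dlx6os1 exon between the coding genes (5.25) and another -31 bp from the Dlx5 start (4.59).

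NFIA in InN had 2, 0 and 1 peaks around Dlx5 and Dlx6. The peak of replicate 1 at -1110 bp from the Dlx6 start overlapped the GR peaks there and had a fold enrichment of 8.01, higher than 91.0% of the peaks of its own list. Its other peak lay 10 bp inside Dlx5 (4.26) and overlapped that of GR, while the peak of replicate 3 lay -3027 bp from the Dlx5 start (5.77). Every NFIA library of astrocytes, ExN and oligodendrocytes had 0 peaks here.

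**Figure D2:**
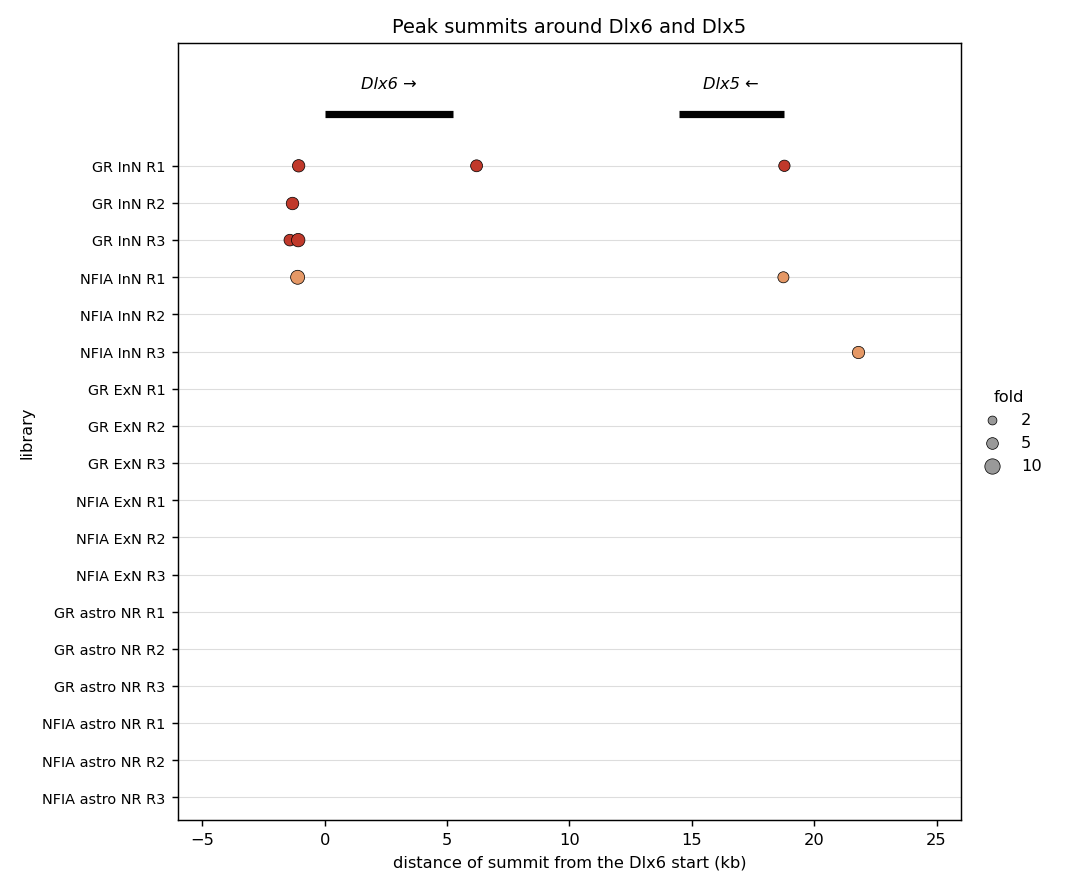
Summits of GR and NFIA peaks (points, sized by fold enrichment) by distance in kb from the Dlx6 start, for each InN, ExN and NR astrocyte library (rows). Black bars are the genes, with arrows in the direction of transcription. The InN summits gather just upstream of Dlx6 and at the Dlx5 start, and the ExN and astrocyte rows are empty.

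At Dlx1 and Dlx2, GR had 1, 0 and 1 peaks in InN. The peak of replicate 3 lay at the start of the antisense transcript Dlx1as (5.33) and that of replicate 1 in the intergenic stretch between the genes (4.82). The peaks did not overlap, so no site was shared. NFIA had 0 peaks at this pair in InN and 1, 0 and 0 in astrocytes, the latter inside Dlx1 with a fold enrichment of 3.45, higher than only 4.78% of its list. The count for GR turned on InN replicate 2, the shortest of the InN lists: without it, Dlx1, Dlx2, Dlx5 and Dlx6 were all higher in InN without overlap, 4 of the 8 genes and 2 of the 6 loci, against each of NR astrocytes, ExN and oligodendrocytes. With that library left out, 0.214%, 1.32% and 3.67% of all genes were higher in InN in the 3 comparisons.

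In DEX-treated 3T3 cells, GR peaks appeared in the Dlx1 and Dlx2 windows at other positions. At 250000 nuclei there were 2 and 0 peaks for Dlx1 and 3 and 1 for Dlx2 in replicates 1 and 2, and none with vehicle or at 50000 nuclei. One region, -48.0 kb from the Dlx2 start, was called in both libraries (5.88 and 4.35), and the others lay in introns of Metap1d, which encodes a mitochondrial methionine aminopeptidase. DEX and vehicle overlapped for every one of the 8 genes, with an exact p = 0.3333 for Dlx2 and 1 for Dlx1, while 1.25% of all genes were higher and 0.0365% lower with DEX without overlap.

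At the genes of the GABA-synthesising enzymes, InN had 5 NFIA peaks and 1 GR peak. Gad2 had 1, 0 and 2 NFIA peaks in InN replicates 1 to 3 and 0 GR peaks in every one of the 27 libraries. The summits lay 300 and 303 bp past the Gad2 start in replicates 1 and 3 (6.13 and 7.81), with a further one at 184 bp in replicate 3 (5.37). The first of these was the only NFIA site of InN in the windows that was called in 2 libraries. No other group had a peak near Gad2.

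Gad1 had 1, 0 and 1 NFIA peaks and 1, 0 and 0 GR peaks in InN. In replicate 1 both factors had a peak at a start inside Gad1. The summits lay 8991 and 9010 bp past the first start (4.72 for NFIA and 4.50 for GR). The fourth sequence above is the part of this NFIA peak outside annotated untranslated region, and it ends before both summits. The NFIA peak of replicate 3 lay 10423 bp past the first start, at a further internal start of Gad1 and of its antisense gene Gad1os. Astrocytes had peaks in the Gad1 window too, but at the far end. All 3 NFIA libraries and GR replicates 1 and 3 had a peak at the shared start of Erich2 and Erich2os, about -43.7 kb from Gad1, with folds from 7.99 to 11.3. By distance this is a site of Erich2, and InN had none there. In NFIA, Gad1 differed by less than the spread between InN libraries, with exact p = 1 against astrocytes.

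The NFIA comparison of InN with astrocytes gave 0 of the 8 genes higher in InN, where 0.00456% of all genes (1 gene) were. It gave 1 gene lower, Pvalb, where 56.1% of all genes were lower, so a single gene is below the background share. The median difference was -0.167 peaks over the 8 genes and -1.33 over all genes. Dlx5, Dlx6 and Gad2 each had a mean of 1 peak in InN and 0 in astrocytes (exact p = 0.4, adjusted p = 0.616). Against ExN, 0 of the 8 were higher and 0 lower, with 0.082% and 0% of all genes, and against oligodendrocytes likewise 0 and 0, with 0.141% and 0.0866%.

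InN replicate 2 decided these NFIA counts. Its list held 178 peaks and none of them lay near any of the 8 genes. Without it, Dlx5, Dlx6 and Gad2 were higher in InN than in astrocytes without overlap (3 of 8), where 0.105% of all genes were. With Gad1 they were 4 of 8 against ExN and against oligodendrocytes, where 1.91% and 3.73% of all genes were.

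Pvalb had the most peaks of the 8 genes in astrocytes. NFIA peaks in its window numbered 7, 6 and 5 in astrocytes against 2, 0 and 0 in InN, 2, 0 and 0 in ExN and 0 in oligodendrocytes. The means of 6 ± 1 and 0.667 ± 1.15 in astrocytes and InN did not overlap (SD, n = 3 each, exact p = 0.1, adjusted p = 0.178). Per 10000 peaks of the list the groups overlapped, and the mean was 1.11 higher in InN. GR peaks numbered 5, 1 and 5 in NR astrocytes against 0, 1 and 1 in InN and 1, 0 and 1 in ExN. For GR the groups overlapped (exact p = 0.3), through NR replicate 2 with its list of 2262 peaks. Without it, Pvalb was lower in InN without overlap, as were 44.7% of all genes. Per 10000 peaks of the list, with all libraries, the GR mean was 2.38 higher in InN.

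Of the 28 regions, 11 lay in the Pvalb window and 8 of these had a peak in NR astrocytes. Most were 24.5 to 48.4 kb downstream of the Pvalb start, beyond its 3′ end and towards Ift27, an intraflagellar transport gene. The site at the Ift27 start had peaks in 12 libraries of 6 groups, the widest spread of any region, at low folds of 1.99 to 2.87. A site inside Ift27 (the last sequence above) had GR peaks in 2 NR libraries and NFIA peaks in all 3, and one at 24.6 kb (the fifth sequence) had the same, with NFIA folds of 12.9, 12.7 and 8.40. At the latter, InN replicate 1 had an NFIA peak (5.44) and InN replicate 3 a GR peak (3.62). By nearest start, these distal sites belong to Ift27 rather than to Pvalb.

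Close to Pvalb itself there were few sites. NFIA in InN replicate 1 had a peak at an internal Pvalb start, 2178 bp past the first, with a fold of 9.43 that exceeded 96.6% of its list. Astrocyte replicate 1 had a weaker NFIA peak there (5.76, above 33.0% of its list). Astrocyte replicates 2 and 3 had NFIA peaks in the first kilobase of the gene, at 914 and 912 bp (9.16 and 6.28). In GR-KO astrocytes, replicate 2 had GR peaks in an exon and an intron near the 3′ end of Pvalb (7.46 and 8.40), where no other library had one.

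**Figure D3:**
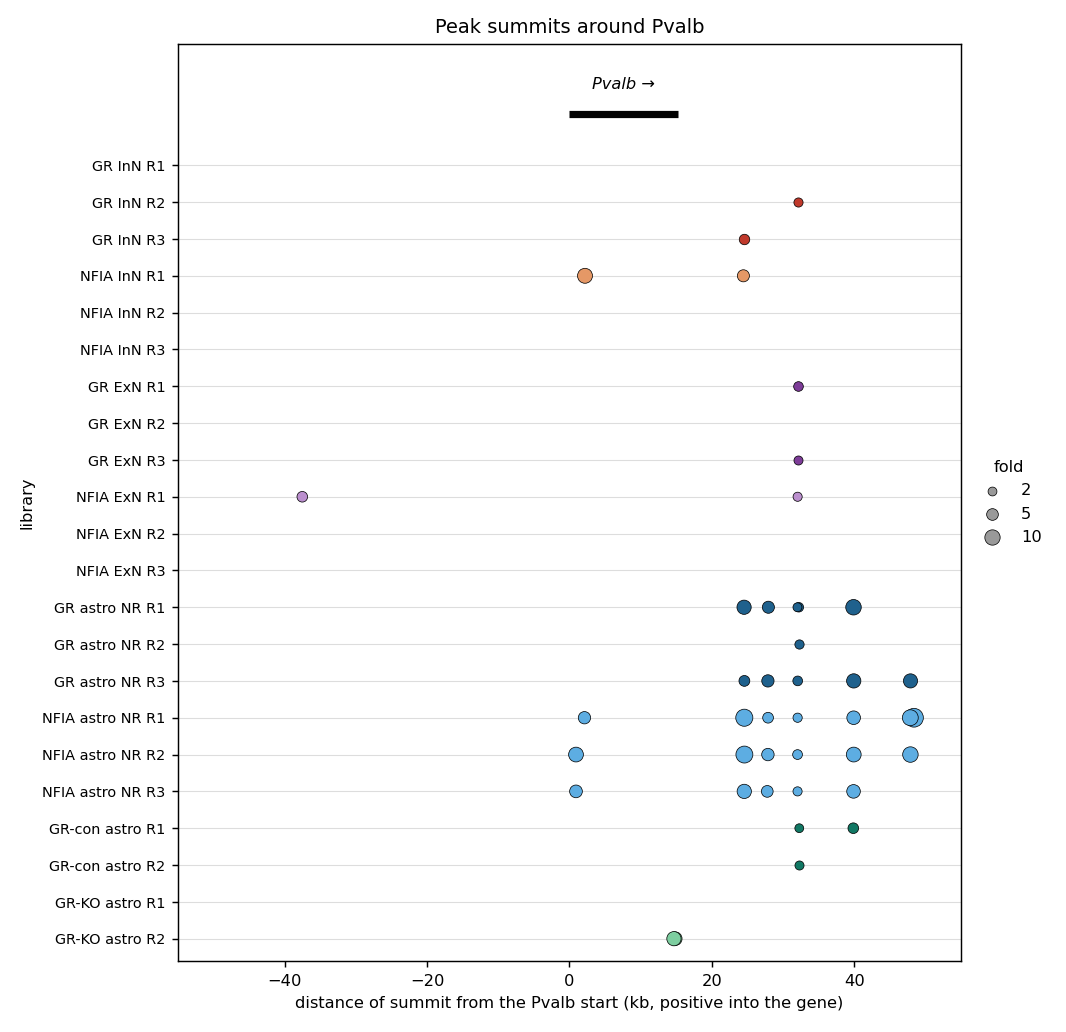
Summits of GR and NFIA peaks (points, sized by fold enrichment) by distance in kb from the Pvalb start, positive in the direction of transcription, for V1 libraries (rows). The black bar is Pvalb. Astrocyte summits line up between 24.5 and 48.4 kb past the start, and InN has 4 summits in all.

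Between rearing conditions, Pvalb had 5, 1 and 5 GR peaks in NR and 0, 0 and 0 in DR astrocytes, which did not overlap (exact p = 0.1, adjusted p = 0.779). It was 1 of the 8 genes, beside 10.7% of all genes, and 0 of the 8 remained in a 10 kb window, with q under 0.001 or among the 28 best peaks of each list. No share of all genes is given at these other settings. The DR lists held only 69, 28 and 293 peaks, and none lay near any of the 8 genes. GR-con and GR-KO astrocytes had 2 and 1 against 0 and 2 peaks at Pvalb, which overlapped (exact p = 1, with 0.3333 the smallest that 2 libraries against 2 allow). None of the 8 was higher in GR-con without overlap, where 20% of all genes were, and none was lower, beside 0.0137%. Without GR-KO replicate 2, Pvalb was higher in GR-con without overlap, as were 20.8% of all genes.

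Sst had a single peak in the whole study. It was a GR peak of NR astrocyte replicate 1 at -40.2 kb, at an annotated transcript start of Rtp2 (fold 4.90). Every InN library had 0 for both factors.

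Because lists differed in length, the share of each list that fell into the windows was set side by side as a description. For GR it was 20.4, 21.8 and 26.1 peaks per 10000 in InN, 5.00, 4.42 and 2.79 in NR astrocytes and 2.19, 0 and 6.08 in ExN. For NFIA it was 31.5, 0 and 31.1 in InN, 3.32, 2.75 and 2.68 in astrocytes and 4.79, 0 and 0 in ExN. All 3 GR libraries of InN lay above every GR library of astrocytes and ExN but 1, GR-KO replicate 2, where 2 peaks of 413 gave 48.4. For NFIA, InN replicates 1 and 3 lay above every astrocyte and ExN library, and InN replicate 2, at 0, lay below every astrocyte library.

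**Figure D4:**
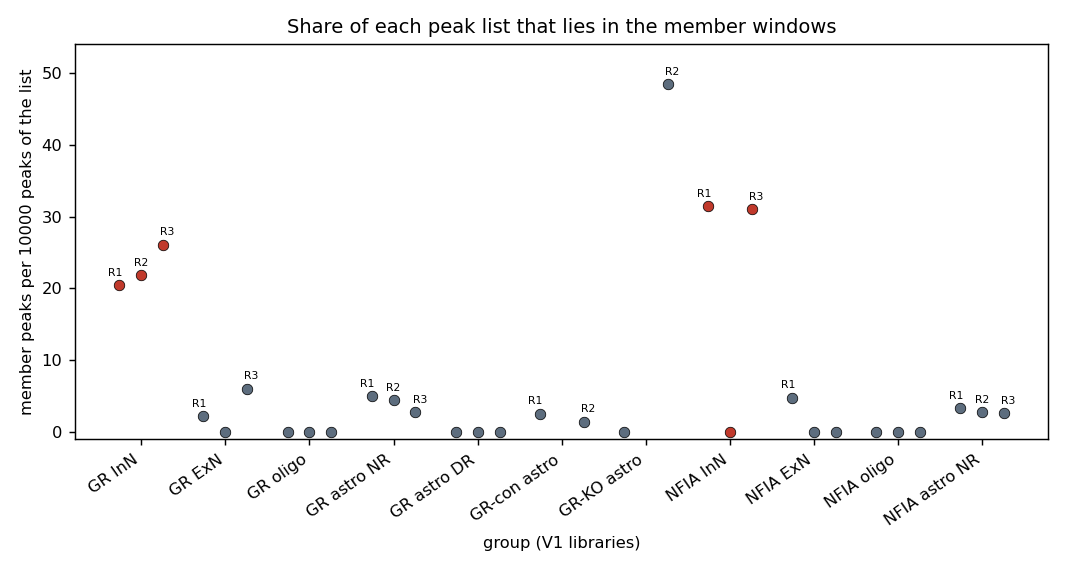
Peaks in the windows of the 8 genes per 10000 peaks of the same list, for each V1 library (points, R1 to R3 marking replicates above 0), with InN in red. GR in InN sits between 20.4 and 26.1 and NFIA in InN at 31.5, 0 and 31.1, while NR astrocytes stay at 5.00 or less for both factors.

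Each peak was ranked within its own list. The 11 GR peaks of InN had folds from 2.30 to 7.22 and a median rank at the 46.3rd percentile of their own list, with 5 of 11 above the list median. Ranked by q, their median was at the 57.6th percentile, with 8 of 11 above. The 10 NFIA peaks had folds from 4.26 to 9.43 and a median at the 59.6th percentile, with 7 of 10 above. In NR astrocytes the medians were 36.4 for 14 GR peaks and 64.3 for 22 NFIA peaks. The lowest InN ranks, 6.55 and 11.9, were those of the GR peaks beyond Pvalb, and the highest GR ranks, 84.7 and 73.1, those upstream of Dlx6.

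**Figure D5:**
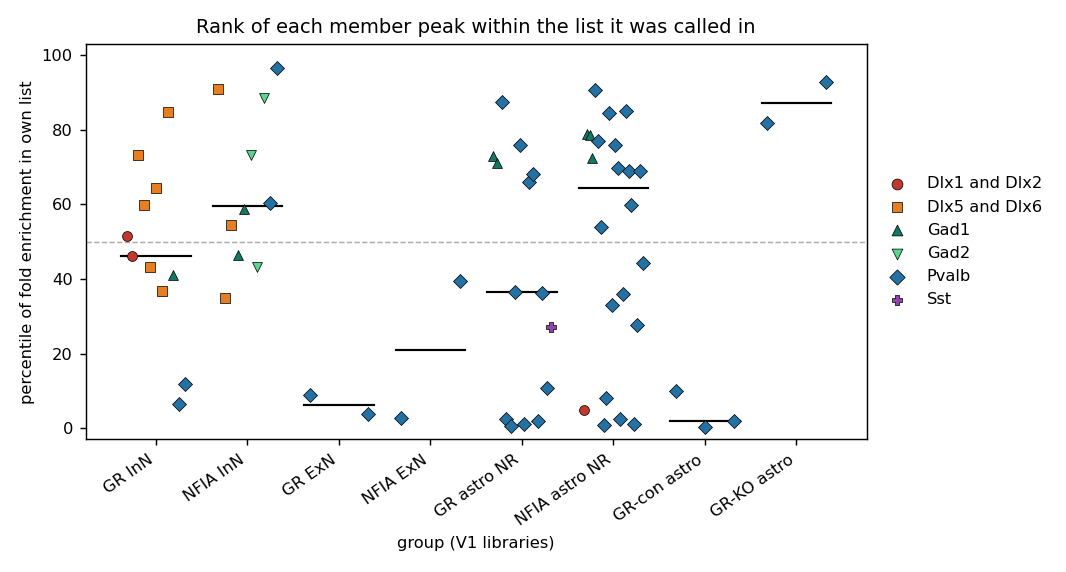
Percentile of the fold enrichment of each peak among all peaks of its own list (points, by locus), for V1 groups with a peak in the windows. Lines are group medians and the dashed line is the 50th percentile. Dlx and Gad peaks of InN spread from 34.9 to 91.0, and the Pvalb peaks of NR astrocytes from 0.585 to 90.8.

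The same regions were examined for both factors. Of the 14 InN regions, 4 had both factors, 5 GR alone and 5 NFIA alone. Of the 11 astrocyte regions, 6 had both, 1 GR alone and 4 NFIA alone. Over the whole lists, 19.2% of InN GR regions met an NFIA region and 26.6% of NFIA regions met one of GR. In ExN these shares were 30.4% and 38.5%, and in NR astrocytes, whose lists are far longer, 89.5% and 61.6%.

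Motif letters were searched within 50 bp of each summit. At GR summits of InN the NFI motif was found in 0 of 11 (6.50% to 9.50% of the peaks of these lists), the loose response element in 1 of 11 (2.25% to 3.38%), the E-box in 2 of 11 (13.1% to 18.9%) and the homeobox letters TAATTA in 0 of 11 (2.74% to 4.95%). These counts moved with the stretch searched: within 100 bp the homeobox letters were found in 3 of 11 (5.48% to 8.93%) and the NFI motif in 2 of 11 (11.5% to 16.2%). At NFIA summits of InN the NFI motif was found in 1 of 10 (11.1% to 28.1%), the summit upstream of Dlx6 whose letters are in capitals in the first sequence above. In NR astrocytes the loose response element was found at 4 of 14 GR summits (2.33% to 4.29%) and 6 of 22 NFIA summits (2.18% to 2.57%), all in the last 2 sequences above. These are repeated calls of the same 2 sites, so they count as 2 places. AP-1 letters (TGANTCA) were found at 5 of 22 NFIA summits of astrocytes (2.31% to 2.48%). They include 2 calls of a single site in the Pvalb intron, so the places are fewer. At GR summits of InN the AP-1 letters were found in 0 of 11 (7.03% to 10.7%).

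A wider list of 28 other inhibitory neuron genes showed how far the pattern reached. Genes with a GR peak in at least 2 InN libraries were 5 of the 8 (62.5%), 2 of the 28 (7.14%) and 6.38% of all genes. For NFIA they were 4 of the 8 (50%), 3 of the 28 (10.7%) and 5.07% of all genes. Since paired Dlx genes share their peaks, these are 3 of the 6 loci for each factor, and for GR the third locus is Pvalb, where the InN peaks lay nearer to Ift27. In NR astrocytes they were 2 of the 8 and 8 of the 28 for GR, with 51.5% of all genes, and 2 of the 8 and 12 of the 28 for NFIA, with 66.0%. None of the 28 separated InN from astrocytes or ExN in GR. For NFIA, 8 of the 28 (28.6%) were lower in InN than in astrocytes, beside 56.1% of all genes. They included the transcription factors Sox6 (0 against 7, 5 and 4) and Zeb2, the calcium-binding Calb2, the neuropeptide Cort, the chemokine receptor Cxcr4 and the potassium channel Kcnc1, each with exact p = 0.1 and adjusted p = 0.178.

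The labelled cell types were checked at other marker genes. The 10 astrocyte genes had 14 to 85 GR peaks in total in each NR library and 75 to 85 NFIA peaks, against 0 GR peaks in every InN library and at most 1 NFIA peak. Slc32a1, whose Cre marks InN and which encodes the vesicular GABA transporter, had 3, 0 and 2 NFIA peaks in InN and 1, 0 and 0 GR peaks, but also 1, 2 and 2 NFIA peaks in astrocytes. Slc17a7, the driver of the ExN line, had 4, 0 and 3 GR peaks in ExN and 1, 0 and 0 in InN. It also had 5, 0 and 6 GR peaks in NR astrocytes, and 5, 5 and 4 NFIA peaks there. In a list of 12 excitatory neuron genes, 3 had a GR peak in any ExN library, beside 6565 of all 21938 protein-coding genes. The 10 oligodendrocyte lineage genes had 0 GR peaks in every oligodendrocyte library and at most 1 NFIA peak in total. Of all genes, 0.0228% to 1.70% had a GR peak in an oligodendrocyte library, and 0.506% to 6.83% an NFIA peak. GR peaks of the 10 lineage genes numbered 1 to 5 in total in each InN library and 4 to 41 in each NR astrocyte library. The lists record binding, not expression, and cannot show the purity of a population.

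The NFIA pattern over libraries could be matched with other genes for Pvalb alone, the gene of the 8 with at least 10 NFIA peaks over 12 libraries. Among 6564 genes considered, those most like it by Pearson's r of log2(peaks + 1) included Fam50a on chromosome X and Gm16253 on chromosome 3, each with r = 0.999. The points share the 3 long astrocyte lists and are near 0 elsewhere, so the likeness describes astrocyte peaks.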

How the data were processed

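CUT&RUN peak lists of 39 of 50 samples were analysed, in 15 groups taken from the sample labels; 11 samples (IgG and GFP-negative) were not analysed here. The methods of the study state that the authors used cutadapt for trimming, Bowtie2 for alignment to mm10, Picard, SAMtools and deepTools for filtering down to short fragments, and MACS2 with an IgG control for the peaks of each library. Each deposited peak holds a fold enrichment (a ratio over local background) and a −log10 p and −log10 q from the authors' caller, used only within a list. Read depth is not given by these lists, and their length limits what each library can show.

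Peaks overlapping the 50 kb around each gene start (GENCODE M21) were counted per library with Python 3.11.15, numpy 2.4.6 and pandas 2.3.3. Differences of means were tested by exact two-sided permutation of libraries, with Benjamini-Hochberg adjustment over 21938 protein-coding genes; in 3T3 cells labels were permuted within the number of nuclei. No gene reached an unadjusted p under 0.05 in any comparison. A gene was also counted where all libraries of a group lay above all of the other. Each p-value is the share of relabellings whose difference of means was at least as large, and differences between these samples may be technical. Peaks were merged into regions over all libraries, and a promoter or start means within 500 bp of any annotated start, including starts inside genes. Scripts were tested on simulated data.

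The members, gene lists and tests were chosen with earlier results of these data known. Genes named were the 8 members, those of the 28 other inhibitory neuron genes whose groups did not overlap (up to 8 by size of difference), the 3 genes most like a member with at least 10 NFIA peaks, and genes whose start is nearer to a peak; some genes that meet this rule are not reported here. Alternatives were windows of 10 and 100 kb, counts per 10000 peaks, equal numbers of best peaks, q under 0.001, other starts, a replicate block and leaving out each library.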

Additional observations from a re-analysis of the deposited data

How the results depend on the processing

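Peak numbers are small and depend on the length of each list and on the window. Except for left-out libraries named in the Results, the counts of genes below have no share of all genes at the same setting beside them. These counts are description only. For GR in InN against NR astrocytes, the 2 genes higher without overlap (Dlx5 and Dlx6) became 1 in a 10 kb window (Dlx6) and 0 in a 100 kb window, where 1 gene (Sst) was lower. In that wider window the differences of Dlx1 and Dlx2 were -2.67 and -4.33 peaks. Gad1 and Pvalb, whose means were lower in InN as reported, were reversed. Gad1 was higher in InN by 0.33 peaks in a 10 kb window and by 0.97 per 10000 peaks. Pvalb was higher in InN by 2.38 per 10000 peaks and by 0.33 among the 916 best peaks of each list. Against ExN and against oligodendrocytes the 2 genes became 1 in a 10 kb window and 0 where only the 61 or 4 best peaks of each list were counted. Leaving out each library in turn gave 2 to 4 genes higher in all 3 comparisons, the highest without InN replicate 2, and 0 to 1 lower against NR astrocytes.

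For NFIA in InN against astrocytes, the 1 gene lower (Pvalb) became 0 in a 10 kb window, 0 per 10000 peaks, 0 among the 178 best peaks and 5 in a 100 kb window. The share of all genes lower is given for the 50 kb window alone, where it was 56.1%. Pvalb was then higher in InN, by 1.11 per 10000 peaks and by 0.33 peaks among the 178 best, as was Gad1 by 0.33 peaks in a 10 kb window and by 3.93 per 10000 peaks. Leaving out each library gave 0 to 3 genes higher against astrocytes and 0 to 4 against ExN and against oligodendrocytes, the highest without InN replicate 2. For rearing, 1 gene became 0 in a 10 kb window, with q under 0.001 and among the 28 best peaks, and 2 in a 100 kb window, with 1 to 2 when a library was left out. For GR-con against GR-KO, 0 genes higher became 2 in a 100 kb window and 0 to 1 when a library was left out. The Pvalb difference there was -22.2 per 10000 peaks, -1 among the 413 best peaks and between -0.5 and 1.5 when a library was left out.

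Sites called in all 3 libraries numbered 1 for GR in NR astrocytes and 0 each for GR in ExN, GR in InN and NFIA in InN. Ranked by q, 8 of 11 GR peaks of InN lay above their list median. Within 100 bp in place of 50 bp, 4 of 22 NFIA summits of astrocytes held the NFI motif, and 2 and 3 of 11 GR summits of InN held the NFI and homeobox letters, against 0 and 0. The cause of these changes was not tested. The other 251 recomputed counts stayed close to those reported, and the other 629 differences of single genes were not reversed. The threshold of 0.05 could not be crossed and says nothing about their stability. The smallest exact permutation p was 0.1 for 3 libraries against 3, 0.3333 for 2 against 2 and 0.0556 in 3T3 cells. Correlations of same-numbered libraries ran from -0.116 to 0.314. Whether replicate numbers mark a shared batch was not settled, and the samples were not treated as paired. The replicate block changed 0 of 60 counts and differences. It could change none of them, because a block restricts only the relabellings behind a p-value.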
